A study of Mus musculus with 8 samples.

Results

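Glutamine carries a spare nitrogen on its side chain, and a small family of enzymes, the glutamine amidotransferases, moves that nitrogen onto other molecules. The 9 genes described here encode enzymes of that family that build nucleotides and amino sugars, together with a pair of enzymes downstream of them, and were chosen by function from the 55414 genes counted in wound macrophages. Ctps, Ctps2 and Cad act in pyrimidine synthesis, Ppat, Pfas and Gmps in purine synthesis, Gfpt1 at the start of the hexosamine pathway, and Uap1 and Ogt further along it. All 9 passed the filter on low counts, which left 15371 genes for testing.

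RNA was sequenced from macrophages of mouse skin wounds at day 1 and day 3 after injury, giving 3 day 1 libraries, lettered a to c, and 5 day 3 libraries, lettered a to e. Each library came from a pool of 6 wounds of 3 mice, from which cells with F4/80, a surface protein of macrophages and the product of Adgre1, were taken with magnetic beads. The labels give no strain, age, genotype or further treatment, so the groups are described by the day after wounding alone. Whether any mouse contributed to several pools is not stated, and p-values therefore reflect the spread between these pools, part of which may be technical.

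The nucleotide branch feeds RNA and DNA synthesis, and its enzymes are known for high activity in dividing cells. The hexosamine branch ends in UDP-N-acetylglucosamine (UDP-GlcNAc), the sugar donor for protein glycosylation and for O-GlcNAc, a reversible sugar mark on nuclear and cytosolic proteins. In macrophages, glutamine use through the hexosamine pathway is known from cells activated by interleukin 4, where it supports glycosylation of lectins and receptors.

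Levels are CPM, counts scaled to a common library total, and comparisons between genes use CPM per kilobase of exon. Total counts ran from 41566151 to 60289310 per library, and the floor of detection, set at 3 counts for counting error only, lay between 0.05 and 0.0752 CPM. The day 1 libraries held counts on 23928 to 27315 genes and the day 3 libraries on 14952 to 20557. None of 12 macrophage markers was at or under the floor in every library, and their summed level was 25937 to 31628 CPM at day 1 and 37465 to 46773 CPM at day 3. Summed monocyte markers (8 genes) were at 6447 to 8334 CPM at day 1 and 3512 to 4534 CPM at day 3. Summed neutrophil markers (12 genes) were at 3688 CPM in day 3 b and at 444 to 677 CPM in the other day 3 libraries, while the day 1 libraries ran from 839 CPM in a over 2239 CPM in b to 3930 CPM in c. In bulk RNA, fewer cells of a type and less RNA per cell cannot be told apart.

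Since Gfpt1 and Uap1 lay lower in every day 3 library than in any of day 1, Ctps2 lay higher, and Ppat has Paics as a head-to-head neighbour, the stretches from 250 bases before to 50 after the start sites of these 5 genes are printed, 5′ to 3′, from RefSeq on GRCm38.p6. Capitals mark a CCAAT box (CCAAT on either strand) or an E-box (CACGTG), the letters that Myc and Max bind.
Gfpt1, chr6:87042596-87042895, plus strand: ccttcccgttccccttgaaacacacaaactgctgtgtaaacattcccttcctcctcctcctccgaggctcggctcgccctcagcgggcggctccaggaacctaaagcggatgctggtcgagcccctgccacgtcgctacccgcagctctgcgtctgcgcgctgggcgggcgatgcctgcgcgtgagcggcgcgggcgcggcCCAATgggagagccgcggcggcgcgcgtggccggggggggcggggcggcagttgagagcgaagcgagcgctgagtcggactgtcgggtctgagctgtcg
Uap1, chr1:170174915-170175214, minus strand: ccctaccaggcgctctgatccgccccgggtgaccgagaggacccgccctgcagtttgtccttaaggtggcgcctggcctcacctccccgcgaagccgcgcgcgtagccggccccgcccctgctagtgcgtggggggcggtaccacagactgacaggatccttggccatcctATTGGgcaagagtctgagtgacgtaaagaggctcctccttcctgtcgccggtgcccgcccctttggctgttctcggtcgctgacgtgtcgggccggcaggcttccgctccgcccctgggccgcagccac
Ctps2, chrX:162901921-162902220, plus strand: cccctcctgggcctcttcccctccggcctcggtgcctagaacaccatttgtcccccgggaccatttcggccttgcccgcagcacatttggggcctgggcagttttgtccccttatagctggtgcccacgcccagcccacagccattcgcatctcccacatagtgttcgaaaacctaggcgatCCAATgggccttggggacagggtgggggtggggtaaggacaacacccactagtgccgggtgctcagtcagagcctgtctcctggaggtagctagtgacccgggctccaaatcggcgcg
Ppat, chr5:76951529-76951828, minus strand: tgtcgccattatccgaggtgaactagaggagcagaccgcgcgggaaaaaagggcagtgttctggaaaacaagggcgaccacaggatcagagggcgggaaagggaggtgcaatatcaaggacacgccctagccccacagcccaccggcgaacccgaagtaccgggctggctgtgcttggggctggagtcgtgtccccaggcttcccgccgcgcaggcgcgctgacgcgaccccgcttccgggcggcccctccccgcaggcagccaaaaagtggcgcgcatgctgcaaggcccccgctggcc
Paics, chr5:76951052-76951351, plus strand: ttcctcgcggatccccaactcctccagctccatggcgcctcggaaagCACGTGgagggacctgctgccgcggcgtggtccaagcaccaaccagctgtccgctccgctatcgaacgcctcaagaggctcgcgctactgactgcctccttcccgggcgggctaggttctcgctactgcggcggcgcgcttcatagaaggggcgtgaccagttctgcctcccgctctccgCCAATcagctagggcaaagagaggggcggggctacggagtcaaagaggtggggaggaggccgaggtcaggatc

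The table of promoters matched 8 of the 9 genes with 12 windows, and Ctps2, Ctps and Ogt have several start sites each. A CCAAT box was found in the windows of Gfpt1 and Uap1 and in 1 of the 3 windows of Ctps2. It began 49, 79 and 68 bases before the start site, in that order. In Uap1 it lay on the strand opposite to the printed one, where it reads ATTGG in the printed letters. A CCAAT box was present in 37.4% of all 32851 windows of that length. The windows of the other members, and the remaining Ctps2 windows, held no CCAAT box, and the Ctps2 window printed above is the one with the box. None of the 12 windows held an E-box, present in 7.15% of all windows, and the Paics window held one that begins 203 bases before its start site. Also searched on both strands, without a match in any of the 12, were the core of the unfolded-protein-response element bound by Xbp1 (TGACGTGG, in 0.676% of all windows), the endoplasmic reticulum stress element (which contains a CCAAT box, in 0.119%) and the amino acid response element bound by Atf4 (TGATGNAAN, in 3.95%). A match or its absence describes the letters of these windows and says nothing of binding in these cells.

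In the comparison of day 3 with day 1, 0 of the 9 genes passed the test. The edgeR quasi-likelihood test, adjusted over all 15371 genes, called 0.0130% of them. At an unadjusted p under 0.05 there were 3 of the 9, Ctps2 higher and Gfpt1 and Uap1 lower, where 15.8% of all tested genes reached that level (5.12% higher and 10.6% lower). These were also the only 3 of the 9 whose days did not overlap, against 14.1% of all tested genes and 20.6% of those with an average log2 CPM of 5 or more. DESeq2 called Ctps2 (adjusted p = 0.0187) and Uap1 (adjusted p = 0.0488), where it called 6.77% of all genes, and limma voom called 0 of the 9, where it called 5.41% (0.950% higher and 4.46% lower). The median log2 fold change, day 3 minus day 1, was 0.20 over the 9 genes and -0.17 over all genes tested.

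**Figure D1:**
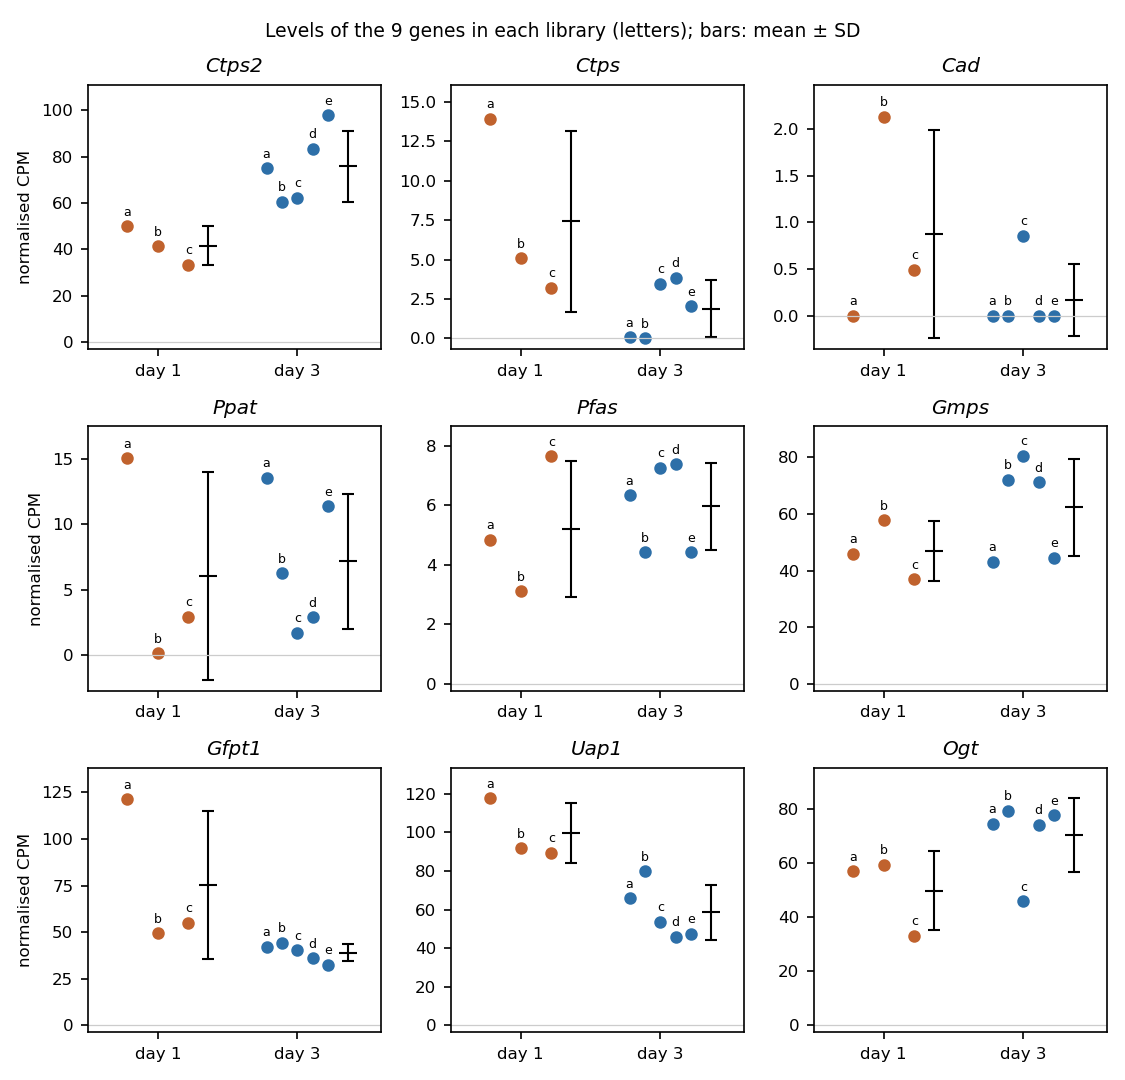
Normalised levels in CPM of the 9 genes (vertical axes) in the 3 day 1 and 5 day 3 libraries, each point a library with its letter, and bars the mean ± SD. Day 3 points lie above all day 1 points for Ctps2 and below all of them for Gfpt1 and Uap1, while Ctps, Cad and Ppat run from at or near 0 to their highest level within a few libraries.

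Per kilobase of exon and over all 8 libraries, Uap1 had the highest mean level of the 9, at 18.4 CPM per kilobase (range 11.4 to 29.4). Ctps2 followed at 13.3 (7.10 to 20.7), Ogt at 7.80 (4.13 to 9.88), Gmps at 6.97 (4.55 to 9.94) and Gfpt1 at 5.23 (3.23 to 12.0). The other 4 were sparse: Ppat was at 1.53 CPM per kilobase (0.0302 to 3.41), Ctps at 1.19 (0 to 4.20), Pfas at 0.716 (0.393 to 0.963) and Cad at 0.0533 (0 to 0.261). Of neighbours in this order, only Pfas and Cad had ranges that did not overlap. By day, Uap1 stood above Ctps2 at day 1, with 24.8 ± 3.93 against 8.82 ± 1.76 CPM per kilobase (SD, n = 3), and at day 3 they were at 14.6 ± 3.55 and 16.0 ± 3.27 (SD, n = 5).

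The pyrimidine genes start with Cad, whose product carries out the opening steps of pyrimidine ring synthesis and takes nitrogen from glutamine (ENSMUSG00000013629, GRCm39 chromosome 5, 31212124 to 31235823). Cad had counts of 0, 128 and 27 in day 1 a, b and c, and of 0, 0, 44, 0 and 0 in day 3 a to e. It was thus listed at 0 in 5 of 8 libraries, where a count of 0 allows a level of up to 0.0514 to 0.0752 CPM, and reached 2.13 CPM in day 1 b, 0.495 CPM in day 1 c and 0.859 CPM in day 3 c. The exact Poisson interval at the 95% level, for counting error only, ran from 107 to 152 around the count of 128. The fitted log2 fold change, which depends on the prior count for such a gene, was -2.34 ± 2.39 (edgeR adjusted p = 0.717), and -0.53 without day 1 b. Its biological coefficient of variation, the spread between libraries of a day beyond counting error, was 2.86. The median of the 1617 genes within 0.5 log2 CPM of Cad was 1.82, and 96.7% of them had a lower value.

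Ctps and Ctps2 encode the pair of CTP synthases, which convert UTP to CTP with glutamine nitrogen. CTP synthase 1, from Ctps, is known for its part in the expansion of activated lymphocytes. Ctps2 (ENSMUSG00000031360, chromosome X, 161684234 to 161815504) was at 50.1, 41.3 and 33.5 CPM in day 1 a to c and at 74.9, 60.5, 62.3, 83.4 and 97.7 CPM in day 3 a to e. Every day 3 library lay above every day 1 library, with the narrowest gap between day 1 a and day 3 b. Day 1 averaged 41.6 ± 8.29 CPM (SD, n = 3) and day 3 75.7 ± 15.4 CPM (SD, n = 5). The log2 difference was 0.86 ± 0.23 (SE), with an edgeR adjusted p of 0.0940 and a limma voom adjusted p of 0.0635. Ctps (ENSMUSG00000028633, chromosome 4, 120397065 to 120427473) was at 13.9, 5.10 and 3.21 CPM in day 1 a to c and at 0.0955, 0, 3.48, 3.84 and 2.04 CPM in day 3 a to e. The days overlapped, since day 3 c and d stood above day 1 c, and the counts behind day 3 a and b were 5 and 0. The log2 fold change was -1.97 ± 1.45 (edgeR adjusted p = 0.585), -1.15 without day 1 a, and -3.47 ± 1.5 by limma voom (adjusted p = 0.214).

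As a share of both CTP synthase transcripts per kilobase, Ctps2 made up 71.6%, 85.1% and 88.0% in day 1 a to c and 99.8%, 100%, 92.6%, 93.8% and 97.1% in day 3 a to e. Ctps2 thus supplied the larger part in all 8 libraries, and its share was 81.6% ± 8.73 at day 1 and 96.7% ± 3.37 at day 3 (SD, n = 3 and 5). These shares restate the values above and were not tested.

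Of the purine genes, Ppat encodes the amidotransferase of the committed step, which puts a glutamine nitrogen on phosphoribosyl pyrophosphate (ENSMUSG00000029246, chromosome 5, 77061096 to 77099425). Its level was 15.1, 0.133 and 2.95 CPM in day 1 a to c and 13.6, 6.29, 1.72, 2.91 and 11.4 CPM in day 3 a to e. The days overlapped, with means of 6.06 ± 7.95 CPM at day 1 and 7.17 ± 5.18 CPM at day 3 (SD, n = 3 and 5). Counts of 602 in day 1 a and 8 in day 1 b, with exact Poisson intervals of 555 to 652 and 3.45 to 15.8, differed far beyond counting error. The log2 fold change was 0.24 ± 1.17 (edgeR adjusted p = 0.951), with -0.33 without day 1 b, 2.19 without day 1 a, and 1.85 ± 1.43 by limma voom (adjusted p = 0.484). The coefficient of variation of Ppat was 1.06, with a median of 0.766 over 1539 genes of like level.

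Paics, which encodes the enzyme for a pair of middle steps of the same pathway, lies head to head with Ppat. Their RefSeq start sites are 275 bases apart on GRCm38.p6, and in the deposited GRCm39 annotation their exons share 272 bases on opposite strands, a stretch where reads of the pair cannot be told apart without strand. Paics was at 46.8, 51.9 and 57.9 CPM in day 1 a to c and at 95.8, 83.1, 98.8, 88.1 and 57.2 CPM in day 3 a to e. It was higher in 4 of the 5 day 3 libraries than in any day 1 library, with day 3 e between day 1 b and day 1 c. Its log2 fold change was 0.70 ± 0.21 (edgeR adjusted p = 0.140) and its coefficient of variation 0.248. The libraries lowest in Ppat, day 1 b and day 3 c, were at 51.9 and 98.8 CPM for Paics, the highest Paics value being that of day 3 c.

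Pfas encodes the amidotransferase of a later step of purine ring building (ENSMUSG00000020899, chromosome 11, 68876523 to 68899286). It was at 4.84, 3.12 and 7.64 CPM in day 1 a to c and at 6.34, 4.42, 7.27, 7.37 and 4.43 CPM in day 3 a to e. The days overlapped throughout, and the log2 fold change was 0.20 ± 0.57 (edgeR adjusted p = 0.917), or -0.072 without day 1 b and 0.59 without day 1 c. Unlike the other sparse members, Pfas varied less than most genes of its level, with a coefficient of variation of 0.617 where 8.14% of 1499 such genes had a lower one.

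Gmps encodes GMP synthetase, which uses glutamine nitrogen to turn xanthosine monophosphate into GMP (ENSMUSG00000027823, chromosome 3, 63883527 to 63930000). It was at 46.0, 57.8 and 36.9 CPM in day 1 a to c and at 43.1, 72.1, 80.6, 71.1 and 44.5 CPM in day 3 a to e. Day 3 b, c and d stood above all day 1 libraries, while day 3 a and e lay within the day 1 range. The log2 fold change was 0.41 ± 0.27 (edgeR adjusted p = 0.541), and with 1 library left out it ran from 0.25 to 0.58.

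Gfpt1 encodes glutamine-fructose-6-phosphate amidotransferase, the rate-limiting enzyme of the hexosamine pathway (ENSMUSG00000029992, chromosome 6, 87019828 to 87069179). It was at 121, 49.4 and 55.2 CPM in day 1 a to c and at 42.3, 44.4, 40.2, 35.9 and 32.6 CPM in day 3 a to e. All day 3 libraries were below all day 1 libraries, by a small margin for day 1 b, and day 1 a was far above the rest. Day 1 averaged 75.3 ± 40.0 CPM (SD, n = 3) and day 3 39.1 ± 4.80 CPM (SD, n = 5), for a log2 difference of -0.95 ± 0.29 (SE; edgeR adjusted p = 0.144). Without day 1 a it was -0.44 (adjusted p = 0.346). Its paralogue Gfpt2 was at 0.0501, 0 and 7.14 CPM in day 1 a to c and at 5.08, 0.284, 0, 0 and 7.95 CPM in day 3 a to e. Gfpt1 therefore held 81.1% to 100% of both transcripts per kilobase at day 1 and 69.5% to 100% at day 3.

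Uap1 encodes the pyrophosphorylase that makes UDP-GlcNAc, the end product of the pathway (ENSMUSG00000026670, chromosome 1, 169969507 to 170002526). It was at 118, 91.8 and 89.3 CPM in day 1 a to c and at 65.7, 79.8, 53.6, 45.9 and 47.5 CPM in day 3 a to e. Every day 3 library was below every day 1 library, and the highest day 3 value was that of b, where neutrophil markers stood at 3688 CPM. Within day 1 the order was the opposite: c, with the highest neutrophil sum (3930 CPM), had the lowest Uap1 level, and a, with the lowest sum (839 CPM), the highest. Ctps2, by contrast, was lowest on both days in the library with the highest neutrophil sum. It was at 33.5 CPM in day 1 c and at 60.5 CPM in day 3 b. The part of neutrophils in either gene was not tested. For Uap1 the log2 fold change was -0.77 ± 0.22 (edgeR adjusted p = 0.120, limma voom 0.0677), and -0.90 without day 3 b (edgeR adjusted p = 0.0996). Its paralogue Uap1l1 was also lower in every day 3 library, at 130 ± 42.9 and 68.0 ± 10.1 CPM, with a log2 difference of -0.94 ± 0.22 (edgeR adjusted p = 0.0824). The share of Uap1 in both transcripts per kilobase was 44.5% ± 9.50 at day 1 and 46.4% ± 8.03 at day 3 (SD, n = 3 and 5).

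Ogt encodes the transferase that attaches O-GlcNAc to proteins (ENSMUSG00000034160, chromosome X, 100683666 to 100727957). It was at 57.0, 59.6 and 33.2 CPM in day 1 a to c and at 74.7, 79.5, 46.1, 74.4 and 77.8 CPM in day 3 a to e. Of the day 3 libraries 4 were above all day 1 libraries, and day 3 c lay between day 1 c and day 1 a. The log2 fold change was 0.50 ± 0.26 (edgeR adjusted p = 0.410), and 0.27 without day 1 c. Mgea5, also called Oga, encodes the hydrolase that removes the mark and was at 82.8 ± 23.2 and 89.2 ± 23.5 CPM, with a log2 difference of 0.11 ± 0.26 (edgeR adjusted p = 0.901). Ogt made up 39.2% ± 9.0 of both transcripts per kilobase at day 1 and 46.0% ± 7.59 at day 3, with overlapping ranges.

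**Figure D2:**
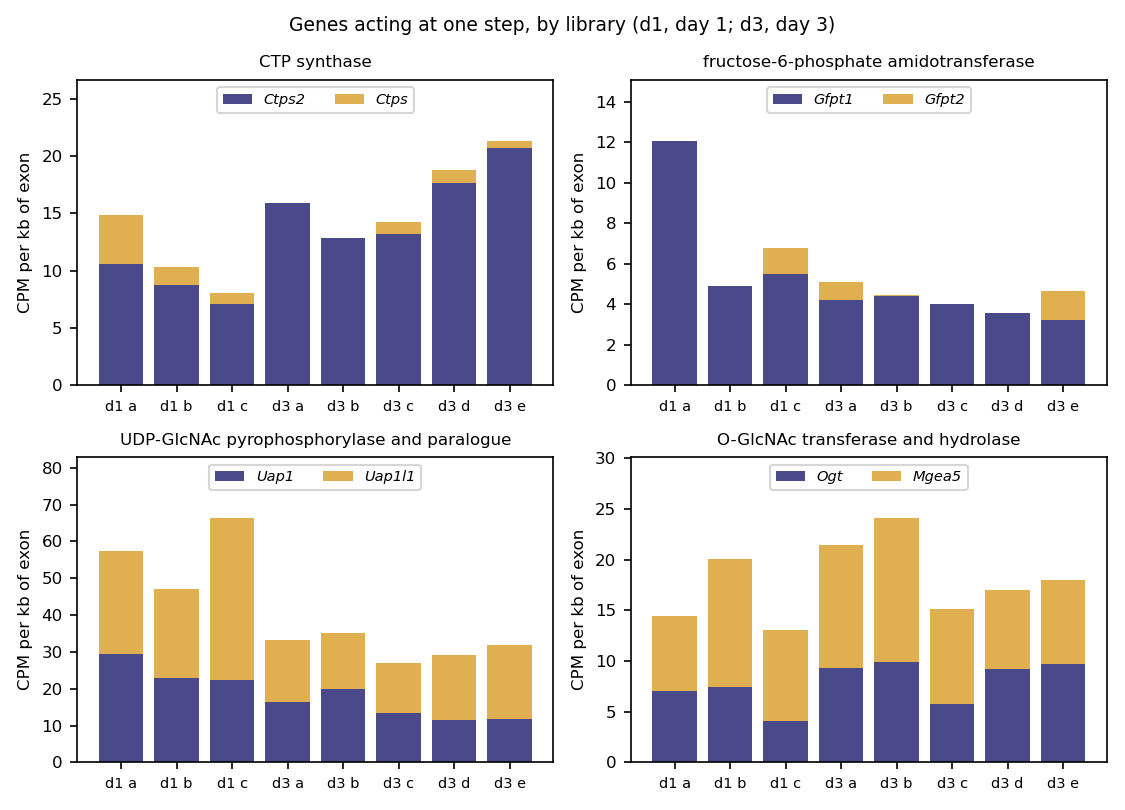
Stacked levels in CPM per kilobase of exon (vertical axes) of genes acting at the same step, or on the same mark, in each of the 8 libraries. Ctps2 fills most of each CTP synthase bar and all of it in day 3 b, Gfpt2 adds to Gfpt1 mainly in day 1 c, day 3 a and day 3 e, and both Uap1 and Uap1l1 are lower in each day 3 library than in any day 1 library.

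The profiles of Gfpt1 and Uap1 over the 8 libraries were the most alike of the 36 pairs of members, with a root mean square difference of 0.28 between mean-centred log2 CPM values, followed by Ctps2 and Ogt with 0.31. Over candidates whose average log2 CPM was 3 or higher, the closest to Gfpt1 were Arpc1a (0.18) and Entr1 (0.18) and the closest to Uap1 were Csf2rb (0.15) and Isy1 (0.16). The nearest to Ctps2 were H2-DMa (0.17) and Usp3 (0.17), to Ogt Dynlt3 (0.14) and Mrps23 (0.15), to Gmps Eif4a2 (0.17) and Zfp263 (0.18), and to Pfas Eif2s3x (0.16) and Prkacb (0.20). Ppat, Ctps and Cad were farther from their nearest genes, which were Chek2 (0.93) and Atmin (0.93) to Ppat, Kdr (1.14) and Taf6l (1.52) to Ctps, and Mplkip (1.47) and Ifit1bl2 (1.56) to Cad. These differences describe 8 libraries that share the day. The median over all candidates was 0.62 to 0.71 for the abundant members and Pfas, 2.06 for Ppat, 2.75 for Ctps and 2.39 for Cad.

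The remaining genes of these pathways were counted in lists, of which there are 14 with that of the 9 members itself, with the members included where they belong. The edgeR test called 0 genes in each list. Of the 86 genes tested that are not members, 18 had an unadjusted p under 0.05, as did 15.8% of all tested genes. The days did not overlap for 6 of the 86 higher and 9 lower (5.22% and 8.84% of all tested genes). DESeq2 called 3 of them higher and 11 lower (2.48% and 4.29% of all tested genes). The limma voom test called 1 of the 86 higher, Hprt, and 4 lower, namely Mxd1 (adjusted p = 0.0193), Adssl1 (0.0331), Max (0.0439) and Amdhd2 (0.0457), where it called 0.950% and 4.46% of all tested genes. DESeq2 called these 5 genes as well. Of the genes named in this report, DESeq2 also called Gatc and Paics higher and Uck2, Dck, Impdh1, Samhd1, Uap1l1 and Xbp1 lower. The median log2 fold change over the 86 genes was -0.11.

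Values with ± after a gene name are log2 differences, day 3 minus day 1, with their SE, unless CPM (mean ± SD at day 1 and at day 3) is written. Over all tested genes, 5.22% were higher and 8.84% lower in every day 3 library, shares that stand beside each list count below. In the hexosamine pathway, 3 of 5 tested genes were lower in every day 3 library and 0 were higher in every one. The 3 were Uap1l1 and the members Gfpt1 and Uap1, already counted above. The list's median was -0.77, and its summed level was 266 to 367 CPM at day 1 and 160 to 206 CPM at day 3. Pgm3, the mutase between Gfpt1 and Uap1, had a log2 fold change of -0.33 ± 0.48, and Gfpt2 one of 0.15 ± 2.42. Gnpnat1, the acetyltransferase of the pathway, had at most 0.549 CPM and was not tested. Of 5 salvage and breakdown genes, Amdhd2, which deacetylates N-acetylglucosamine 6-phosphate, was lower in every day 3 library (-0.94 ± 0.22, edgeR adjusted p = 0.0824) and the kinase gene Nagk higher (0.37 ± 0.16, 0.314). Renbp at 101 and Gnpda1 at 44.8 CPM per kilobase were the most abundant of them, with log2 fold changes of -0.05 ± 0.21 and -0.12 ± 0.20, and Gnpda2 had the largest positive value (0.48 ± 0.35). In O-GlcNAc cycling, 0 of 3 genes had days apart, with Eogt, the transferase of the secretory pathway, at 1.00 ± 1.05. Of 13 tested users of UDP-GlcNAc, Alg14 alone had days apart (higher, 0.68 ± 0.31). The most abundant users per kilobase were Mgat2 (-0.44 ± 0.48) and Dpagt1 (0.59 ± 0.42), and the extremes were Mgat4b (1.37 ± 1.1) and Gne (-2.23 ± 1.01).

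Among the 10 tested genes of de novo pyrimidine synthesis, Ctps2 alone had days apart, and the list's median was -0.19. The most abundant were the kinase genes Cmpk1 at 74.9 and Nme1 at 23.0 CPM per kilobase, with log2 fold changes of -0.17 ± 0.15 and 0.30 ± 0.19. Dhodh and Umps, which complete UMP synthesis after Cad, were detected in all libraries, with log2 fold changes of -0.11 ± 0.46 and -0.39 ± 0.42. In pyrimidine salvage, 2 of 7 tested genes were lower in every day 3 library, against 8.84% of all tested genes. Dck, the deoxycytidine kinase gene, was at 191 ± 43.0 and 114 ± 21.1 CPM (-0.75 ± 0.21), and Uck2, a uridine-cytidine kinase gene, at 48.7 ± 43.7 and 12.3 ± 1.93 CPM (-1.98 ± 0.47). Their edgeR adjusted p values were 0.106 and 0.0824. Upp1, the uridine phosphorylase gene, was at 92.7 ± 96.6 and 47.2 ± 73.3 CPM (-0.97 ± 1.06), and Tk2 had the largest positive value (0.45 ± 0.42).

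Of 11 tested genes of de novo purine synthesis, 1 was higher and 1 lower in every day 3 library, and the list's median was 0.20. Both act in AMP synthesis from IMP: Adss was at 64.8 ± 18.6 and 110 ± 21.3 CPM (0.77 ± 0.24, edgeR adjusted p = 0.149) and its paralogue Adssl1 at 264 ± 34.9 and 169 ± 16.6 CPM (-0.64 ± 0.15, 0.0824). Gart, a trifunctional enzyme gene of the same pathway, had 0.87 ± 0.58. Impdh1, which encodes the enzyme before Gmps, had -3.67 ± 1.31, with days that overlapped, at 12.1 ± 14.8 and 0.941 ± 1.05 CPM (edgeR adjusted p = 0.199). Its same-step paralogue Impdh2 was more abundant, with 9.69 CPM per kilobase over all libraries against 1.55 for Impdh1. Impdh2 was at 31.0 ± 2.75 and 29.1 ± 8.05 CPM (-0.09 ± 0.28, edgeR adjusted p = 0.923), and its days overlapped. In purine salvage, Hprt, the hypoxanthine-guanine phosphoribosyltransferase gene, was the most abundant of 7 and was higher in every day 3 library, at 134 ± 17.6 and 247 ± 20.2 CPM (0.88 ± 0.16, edgeR adjusted p = 0.0639, limma voom 0.0142, DESeq2 7.33e-06). Aprt followed in level (0.07 ± 0.17), and Ampd2 had the largest negative value (-1.50 ± 1.55). None of the 4 tested genes for phosphoribosyl pyrophosphate synthesis had days apart: Prps1, the most abundant, had 0.08 ± 0.34, Prpsap2 0.19 ± 0.39, Prps2 0.51 ± 0.54 and Prpsap1 -0.85 ± 0.38.

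One-carbon genes supply the formyl groups of the purine ring. Of 11 tested, Mthfs alone had days apart (higher, 0.87 ± 0.29, edgeR adjusted p = 0.166), and Mthfd2, the most abundant, had -0.70 ± 0.41. Phgdh (-2.65 ± 2.28) and Aldh1l2 (2.19 ± 2.37) had the extremes, with day means of 1.53 CPM or less. Of 7 genes of deoxynucleotide supply, Samhd1, which encodes a hydrolase of deoxynucleotides, was lower in every day 3 library, at 875 ± 298 and 504 ± 42.1 CPM (-0.80 ± 0.21, edgeR adjusted p = 0.0873). Rrm2, a ribonucleotide reductase gene, had -1.29 ± 0.75 and Dut 1.15 ± 1.38. Of 20 cycling markers, 0 had days apart, and they summed to 180 to 293 CPM at day 1 and 221 to 296 CPM at day 3.

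Of the other glutamine amidotransferases, Gatc was the most abundant per kilobase. It encodes a subunit of the mitochondrial amidotransferase that forms glutamine on its transfer RNA, and was higher in every day 3 library, at 8.37 ± 2.41 and 20.6 ± 5.69 CPM (1.30 ± 0.39, edgeR adjusted p = 0.128), and 1 of the 6 genes had days apart. Gatb and Qrsl1, the other subunit genes, had 0.23 ± 0.46 and 0.00 ± 1.16, and Asns, the asparagine synthetase gene, 2.46 ± 1.68. Of 7 tested genes for transcription factors known to act on these enzymes, 3 were lower in every day 3 library (8.84% of all tested genes) and 0 higher (5.22%). These were Xbp1, a factor of the unfolded protein response (473 ± 163 and 289 ± 22.1 CPM, -0.71 ± 0.20), Mxd1, a Max partner (753 ± 204 and 282 ± 129 CPM, -1.42 ± 0.32), and Max (66.6 ± 28.7 and 27.5 ± 4.28 CPM, -1.27 ± 0.27), with edgeR adjusted p values of 0.115, 0.0824 and 0.0824. Myc, which drives nucleotide synthesis genes in many cells, was at 0.100, 10.03 and 18.7 CPM in day 1 a to c and at 5.03 to 19.0 CPM at day 3 (0.09 ± 1.05), and Mnt had 0.70 ± 1.01.

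**Figure D3:**
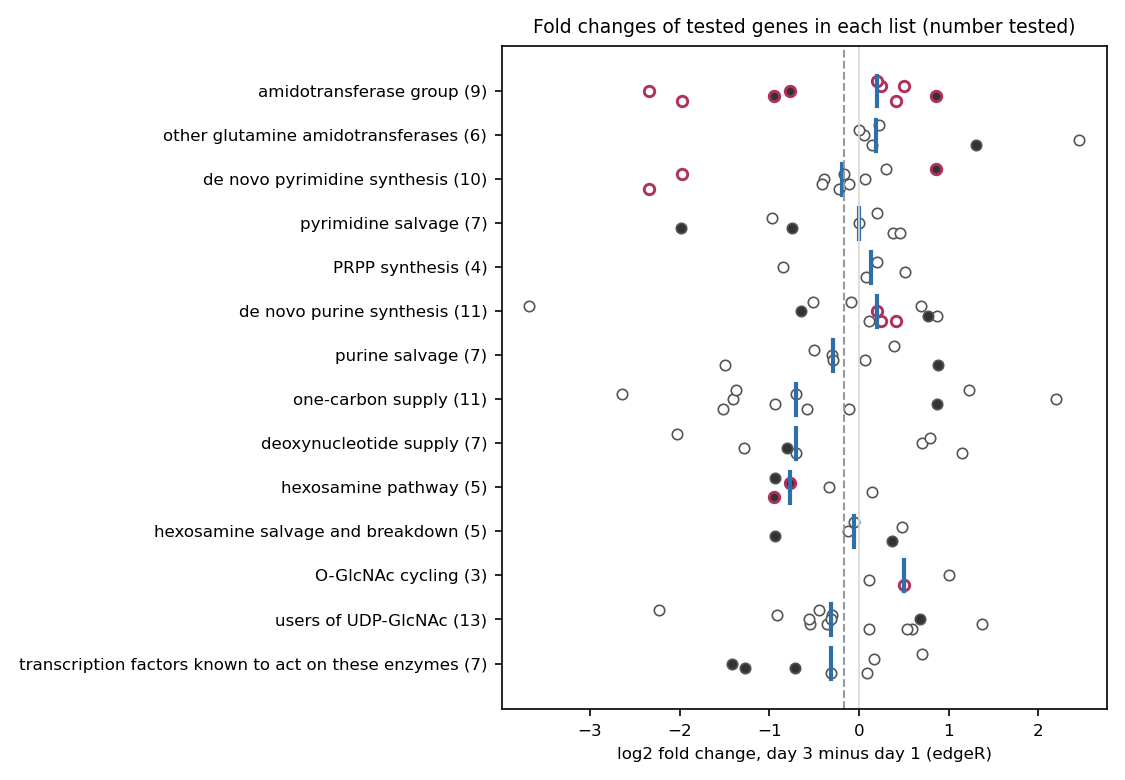
Log2 fold change, day 3 minus day 1 (horizontal axis), of each tested gene in the 14 lists (rows, with the number tested), with a blue line at each list's median and a dashed line at the median of all tested genes, -0.17. Filled points are genes whose days did not overlap and red outlines mark the 9 members. Vertical offsets only separate points. The hexosamine row has 3 filled points, all below 0, and its median of -0.77 is the lowest of the rows.

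Several other measures moved with the day. The monocyte marker sum was lower at day 3, as Gfpt1 and Uap1 were, with 5 of 8 genes lower in every day 3 library, 0 higher and 1 called by edgeR. The macrophage marker sum was higher, as Ctps2 was, with 4 of 12 genes higher and 1 lower in every day 3 library. Of all tested genes, 5.22% were higher and 8.84% lower in every day 3 library, and edgeR called 0.0130%. Fibroblast markers summed to 9.55 to 37.7 CPM at day 1 and 55.6 to 119 CPM at day 3, with 3 of 6 tested genes higher, and B and plasma cell markers to 32.0 to 102 and 102 to 212 CPM, with Jchain at or under the floor throughout. Endothelial markers summed to 31.1 to 75.9 and 17.2 to 29.8 CPM, with 0 of 4 tested genes apart. Keratinocyte, T and NK cell, red cell and mast cell markers summed to 29.5 CPM or less in every library, with Mcpt4 and Tpsb2 at or under the floor throughout. The part of these cell types, and of the number of genes detected, in the values of the 9 genes was not tested.

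**Figure D4:**
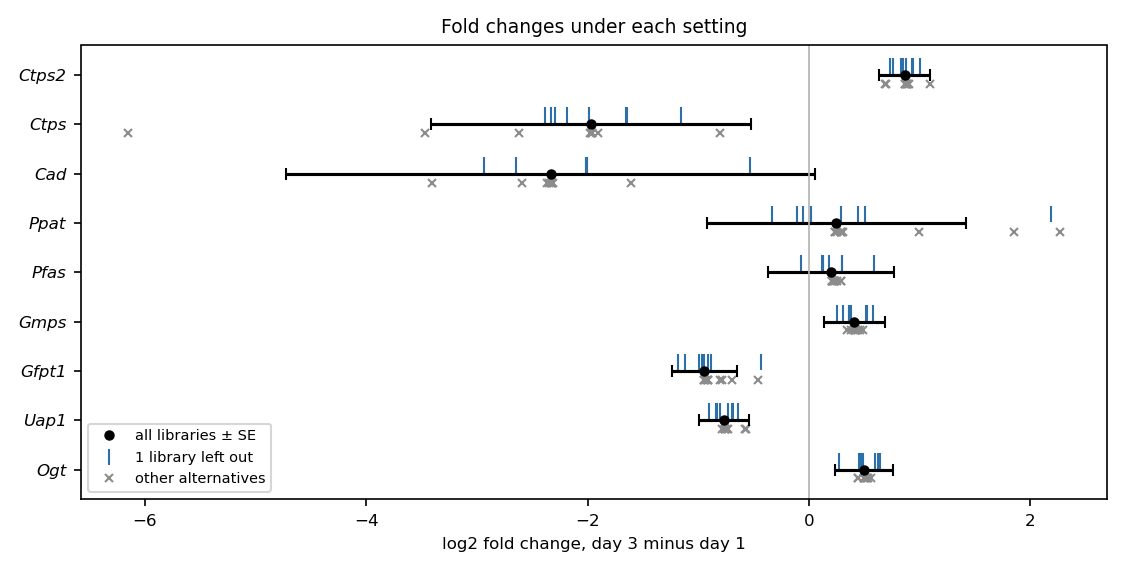
Log2 fold change of the 9 genes, day 3 minus day 1 (horizontal axis): black points are the fit to all libraries ± SE, blue ticks the fits with 1 library left out, and grey crosses the other alternatives. Ctps2, Gmps and Ogt stay above 0 and Gfpt1 and Uap1 below 0 under each setting drawn, Ppat and Pfas cross 0, and Ctps and Cad have the widest standard errors.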

How the data were processed

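The authors deposited raw counts per gene, 1 column per library. Per the file headers, featureCounts 1.6.0 counted reads on the Ensembl release 106 annotation of GRCm39, with no option for strand, read pairs or multiply mapped reads in the recorded command. The deposited exon length per gene (other values) is in bases. Per the submitters' processing notes, Trimmomatic and DESeq2 were also used. Which aligner was run is not stated in the sources used here. Of counts from 2 to 20, 73.0% to 86.0% were even. Counts may therefore hold both reads of a pair, and Poisson intervals would then be too narrow.

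Symbols came from the reference name table (52081 of 55414 genes). Genes were kept with filterByExpr (minimum count 10), scaled with TMM and tested with the edgeR 4.0.16 two-sided quasi-likelihood test. P-values were adjusted by the Benjamini-Hochberg method across all 15371 genes, with a threshold of 0.05 (R 4.3.3). The standard error is the log2 fold change divided by the root of F. CPM are counts per library total times its TMM factor. The alternatives used DESeq2 1.42.0 and limma 3.58.1. The fit was tested on simulated counts. The members and lists were chosen with earlier results of these data known.

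Named beside the members were, in each list, the pair of genes with the highest mean CPM per kilobase and those with the highest and lowest log2 fold change, same-step paralogues, and the 2 genes of most similar profile per member. Further list genes, named for days that did not overlap or as neighbouring steps, were picked with their values in view. A gene of the deoxynucleotide list that this rule names is not reported here. The column letters do not all match those in the recorded counting command, and groups follow the columns. The labels state 6 samples for each day, of which the 8 libraries with counts were used.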

Additional observations from a re-analysis of the deposited data

Results flagged for a closer look

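Among 24 sets of the 5 day 3 values (the 9 genes, 11 marker sums and 4 shares), 4 had a library set apart from the others by more than 0.71 of the whole range, where chance gives about 1 in 20. Ogt was at 46.1 CPM in day 3 c, with the other day 3 libraries at 74.4 to 79.5 CPM. Cad was at 0.859 CPM in day 3 c and at 0 in the other 4, so that any count in a single library would have set it apart and the chance rate does not apply to it. Summed neutrophil markers were at 3688 CPM in day 3 b, with 677 CPM as the next highest. Summed keratinocyte markers were at 29.5 CPM in day 3 b, with 4.51 CPM as the next highest.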

How the results depend on the processing

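Of 159 fold changes of the 9 genes over 18 alternatives, 155 kept their direction. The exceptions were Ppat without day 1 b (-0.33), day 1 c (-0.058) or day 3 a (-0.11), with 2.19 without day 1 a, and Pfas without day 1 b (-0.072), with 0.59 without day 1 c. DESeq2 called 1 gene of the 9 higher and 1 lower; every other alternative called 0. Over all genes, where edgeR called 2, DESeq2 called 1041, limma voom 831, edgeR without a filter on low counts 1347, with the stricter filter (a mean of 5 CPM and, within 1 day, no library under 1 CPM) 146, with halved counts 16, and without day 1 a and day 3 b together 25. With 1 library left out it called 0 to 31, the 31 without day 1 b or without day 3 b. With libraries a to c alone it called 0 genes without a replicate block and 0 with it (1660 and 1343 at an unadjusted p under 0.05), and the block changed no call among the 9 genes. The letters were not treated as pairs, since they are not stated to mark a shared animal or day. Same-lettered libraries had correlations of deviations from the day means of 0.070, 0.0077 and 0.057. With 3 libraries a day in that comparison, these values cannot decide whether the letters mark pairs. The stricter filter left out Ctps and Cad, and without day 3 c Cad was not tested. Ppat, Ctps and Cad are limited by counts at or near 0 in some libraries.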
